A study of Rattus norvegicus with 9 samples.

Results

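The genes described here encode 10 plasma proteins made chiefly by the liver. They are the carriers transthyretin (Ttr), retinol-binding protein (Rbp4) and transferrin (Tf), the scavengers of haemoglobin and haem haptoglobin (Hp), haemopexin (Hpx) and alpha-1-microglobulin (Ambp), the fetuins Ahsg and Fetub, the adhesive protein vitronectin (Vtn) and the acute-phase glycoprotein orosomucoid (Orm1). They were taken as a list of symbols, and each of the 10 matched 1 probe set with 1 gene, out of 14497 genes measured. RNA came from liver cells of F344 rats, with 1 Affymetrix Rat ST array for each of 9 preparations. Adult hepatocytes (3 arrays) were released by collagenase digestion from the livers of rats 5 to 6 weeks old. The 6 fetal preparations came from embryonic day 19 livers, digested with collagenase and purified with antibodies to leucine aminopeptidase (LAP) and to OC.2, a marker of bile duct cells in the study's words. LAP+/OC.2+ cells (3 arrays) and LAP+/OC.2- cells (3 arrays), called OC.2+ and OC.2- below, differ by the OC.2 label. A short description of the OC.2+ preparations reads LAP-OC2+, and the isolation note is the same for both fetal groups, so the division rests on the titles. The labels name the arrays of a group biological replicates, without saying how many animals entered each.

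The liver secretes most carrier proteins of plasma. Transthyretin binds thyroid hormone and travels with retinol-binding protein, which keeps retinol in solution. Transferrin carries iron to cells, while haptoglobin and haemopexin catch haemoglobin and haem that have left red cells. During inflammation, interleukin-6 signals through its receptor and STAT3, and interleukin-1 acts beside it, so that hepatocytes make more of the positive acute-phase proteins, among them orosomucoid, haptoglobin and haemopexin in the rat. Others, such as albumin, transthyretin, transferrin and the fetuin Ahsg, are known as negative acute-phase proteins, since their output falls.

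Values are log2 of the deposited intensity, and a difference is called at an adjusted p under 0.05 in limma (Benjamini-Hochberg over all genes). Median intensity was 79.5 to 81.0 on the adult and 86.5 to 89.7 on the fetal arrays. Markers of other cells moved with the groups. The mean log2 intensity of 13 granulocyte markers was 5.77 to 5.87 over the adult arrays, 5.98 to 6.08 over those of OC.2- cells and 9.85 to 9.97 over those of OC.2+ cells. Between the fetal groups 12 of the 13 rose with OC.2. For 10 red-cell precursor markers it was 6.31 to 6.41, 9.78 to 9.96 and 11.05 to 11.13 in the same order. For 9 hepatocyte markers it was 12.37 to 12.45, 10.24 to 10.39 and 8.66 to 8.80. From adult to OC.2- cells 6 of these 9 fell, 1 rose (Apoa1, 0.69) and 2 were not called. Between the fetal groups 8 fell and 0 rose, with a median of -1.26. At the former step the median was -0.78 and the lowest value -6.90, so the mean log2 intensity fell by more than the median marker. For 8 endothelial markers it was 6.96 to 7.32, 8.64 to 9.04 and 6.49 to 6.60, with 7 of 8 higher in OC.2- than in adult cells and 8 of 8 lower in OC.2+ cells than there. Of 11 macrophage markers (6.82 to 6.91, 7.59 to 7.92 and 7.29 to 7.49) 8 rose and 1 fell (Vsig4) from adult to OC.2- cells. Between the fetal groups 0 of the 11 rose and 4 fell. All 4 megakaryocyte markers (6.62 to 6.76, 7.05 to 7.20 and 8.29 to 8.50) rose from OC.2- to OC.2+ cells. The labels give OC.2 as ductal. Of 9 bile duct markers (5.94 to 6.01, 6.39 to 6.59 and 6.42 to 6.44), Prom1 rose between the fetal groups (0.96), Krt19 (-0.56) and Cldn7 (-0.70) fell and 6 were not called. Against adult cells 6 rose and 0 fell in OC.2- cells, and 5 rose and 1 fell in OC.2+ cells. After median centring these counts were 3 and 2 in OC.2- cells and 4 and 1 in OC.2+ cells. Over all genes 23.7% rose and 20.9% fell from adult to OC.2- cells, and 20.3% rose and 18.2% fell between the fetal groups. From adult to OC.2+ cells 4643 of the 14497 genes rose and 3391 fell. The part of these other cells in the differences below was not tested. In such bulk RNA, fewer hepatocytes and less of a transcript per hepatocyte cannot be told apart.

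The 300 bases around the start of 4 genes are shown because these genes stand at or near the ends of the range that follows. Orm1 rose where the others fell, and Tf and Ahsg had the smallest falls between the fetal groups. Vtn was among the 3 with the lowest differences there. Hpx and Ambp, which make up the 3 with it, are not shown. Sequences are from RefSeq (build GRCr8, 250 bases before the start and 50 after), which had an entry for 8 of the 10 genes, and are written 5′ to 3′ with the motifs searched in capitals.
Orm1 (chr5:81788259-81788558, plus strand): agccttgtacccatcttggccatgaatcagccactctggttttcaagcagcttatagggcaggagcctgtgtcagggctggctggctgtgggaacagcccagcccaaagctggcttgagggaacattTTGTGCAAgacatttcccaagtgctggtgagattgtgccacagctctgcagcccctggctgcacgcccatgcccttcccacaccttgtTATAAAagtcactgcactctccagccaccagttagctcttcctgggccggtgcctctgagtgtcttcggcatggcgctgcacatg 
Tf (chr8:112695327-112695626, minus strand): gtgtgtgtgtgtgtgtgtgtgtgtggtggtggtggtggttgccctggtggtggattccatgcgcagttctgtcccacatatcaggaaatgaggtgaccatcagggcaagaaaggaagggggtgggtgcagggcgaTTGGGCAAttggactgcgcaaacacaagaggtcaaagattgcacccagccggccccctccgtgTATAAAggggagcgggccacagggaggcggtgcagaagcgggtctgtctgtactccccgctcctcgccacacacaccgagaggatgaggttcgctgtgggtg 
Ahsg (chr11:91632534-91632833, minus strand): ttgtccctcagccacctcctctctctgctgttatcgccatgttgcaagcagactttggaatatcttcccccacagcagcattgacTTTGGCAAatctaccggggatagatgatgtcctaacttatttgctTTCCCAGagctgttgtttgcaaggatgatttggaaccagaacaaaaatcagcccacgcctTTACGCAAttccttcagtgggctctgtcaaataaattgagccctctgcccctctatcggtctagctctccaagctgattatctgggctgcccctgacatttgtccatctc 
Vtn (chr10:63892532-63892831, plus strand): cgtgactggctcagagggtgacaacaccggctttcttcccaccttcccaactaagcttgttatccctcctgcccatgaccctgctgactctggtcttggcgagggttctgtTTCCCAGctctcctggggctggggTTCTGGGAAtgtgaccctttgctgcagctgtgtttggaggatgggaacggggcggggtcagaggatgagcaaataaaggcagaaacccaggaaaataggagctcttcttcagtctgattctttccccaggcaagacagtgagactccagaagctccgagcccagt
The motifs were sought on both strands. The letters TTGCNNAA, a core bound by C/EBP factors of the acute-phase response, were present in 5 of the 8 promoters (Hpx, Rbp4, Orm1, Tf and Ahsg) and in 10.6% of 33469 rat promoters of this length. CTGGGAA, the core of an interleukin-6 response element, was in 3 (Vtn, Ahsg and Ttr) against 11.3% of all, and the STAT site TTCNNNGAA in 1 (Vtn, overlapping a CTGGGAA) against 8.87%. The letters TATAAA were found in 3 (Rbp4, Orm1 and Tf) against 14.2%. CAAAGTCCA, bound by HNF4, and GTTAAT, part of the HNF1 site, were in 0 of the 8, against 0.39% and 7.45% of all promoters. In Orm1 the C/EBP letters ended 116 bases before the start, in Tf 108, and Ahsg held them at 2 places, ending 158 and 53 bases before it. The promoter of Ambp held none of these motifs, and that of Hpx only the C/EBP letters. A match describes the letters only.

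Across the 3 groups, 7 of the 10 genes followed 1 order, with adult hepatocytes above OC.2- cells and OC.2- above OC.2+ cells in all 3 comparisons (Ttr, Rbp4, Hp, Hpx, Ambp, Fetub and Vtn). That order held for 8.54% of all genes. Tf and Ahsg were lower in OC.2+ cells than in both other groups, with no call between OC.2- and adult cells, an order of 3.72% of genes. Orm1 had an order of its own, with adult above OC.2+ above OC.2-, found for 1.24% of genes.

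Fetal OC.2- cells, set against adult hepatocytes, had lower RNA levels of most of these genes. Here 8 of the 10 genes were lower and 0 higher in the fetal cells, where 20.9% of all genes were lower and 23.7% higher. The median log2 difference of the 10 was -0.55, against 0.066 over all genes, and 3 genes were lower by at least 2-fold (Hp, Vtn and Orm1), as were 6.58% of all. The fetal arrays lay wholly below the adult ones for 9 of the 10 (23.2% of all genes). In OC.2+ cells against adult hepatocytes all 10 were lower (23.4% of all genes were), with a median of -2.95 against 0.11 over all genes, and 9 by at least 2-fold (11.1% of all). No gene of the 10 overlapped there (25.0% of all genes lay wholly below). In OC.2+ against OC.2- cells 9 were lower and 1 was higher, where 18.2% of genes were lower and 20.3% higher. The median was -2.28 against 0.036 over all genes, and 8 of the 9 fell at least 2-fold (6.63% of all). All 10 had groups that did not overlap, 9 below (20.7% of all genes) and 1 above (25.8%). Each group enters a pair of these comparisons, so the 3 share arrays and are not independent.

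**Figure D1:**
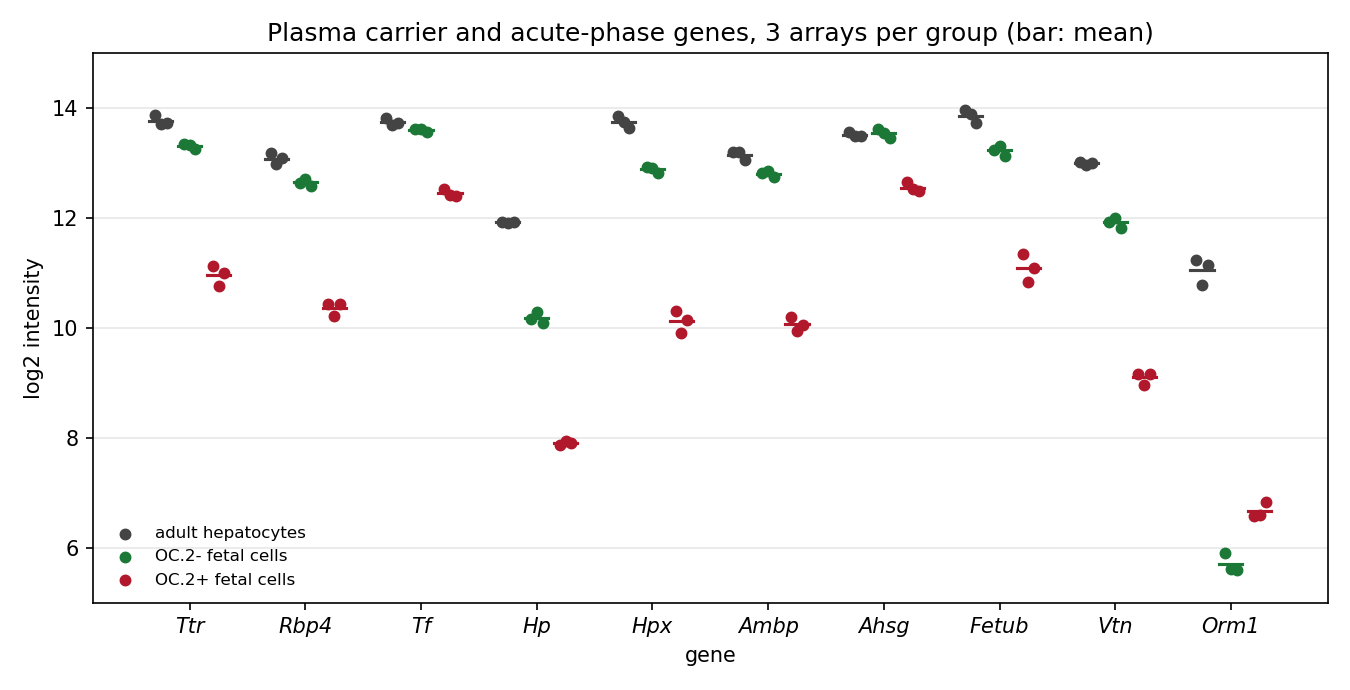
Log2 intensity (vertical axis) of the 10 genes on each of the 9 arrays, with adult hepatocytes in grey, OC.2- fetal cells in green and OC.2+ fetal cells in red, and a bar at each group mean. Points of OC.2+ cells lie lowest for every gene but Orm1, whose lowest points are those of OC.2- cells (5.59 to 5.89).

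Among the carriers of hormone and vitamin, transthyretin (Ttr) stayed bright in OC.2- fetal cells and was far lower in OC.2+ cells. Its log2 intensity was 13.87, 13.70 and 13.73 in adult hepatocytes, 13.34, 13.33 and 13.25 in OC.2- cells and 11.13, 10.76 and 10.99 in OC.2+ cells. The 3 groups did not overlap. OC.2- cells were 1.38-fold below adult (95% interval 1.19 to 1.60, adjusted p = 0.00162), and OC.2+ cells 7.00-fold below adult (6.05 to 8.10, adjusted p = 3.53e-11) and 5.08-fold below OC.2- (4.39 to 5.88, adjusted p = 8.81e-10).

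Retinol-binding protein (Rbp4), the partner of transthyretin in plasma, gave nearly the same picture. It read 13.17, 12.98 and 13.09 in adult, 12.64, 12.72 and 12.58 in OC.2- and 10.43, 10.22 and 10.44 in OC.2+ cells, again with no overlap. The falls were 1.35-fold from adult to OC.2- (1.18 to 1.54, adjusted p = 0.00127), 6.57-fold from adult to OC.2+ (5.76 to 7.50, adjusted p = 1.84e-11) and 4.87-fold from OC.2- to OC.2+ (4.27 to 5.56, adjusted p = 4.91e-10). Over the 9 arrays Rbp4 was the fellow member most like Ttr, with Pearson r = 0.999, a value that rests mainly on the spacing of 3 groups.

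Transferrin (Tf), the iron carrier, was not called between OC.2- and adult cells and fell in OC.2+ cells by less than 7 of the other members. It read 13.81, 13.69 and 13.72 in adult, 13.63, 13.62 and 13.56 in OC.2- and 12.53, 12.41 and 12.40 in OC.2+ cells. The OC.2- arrays all lay just below the adult ones, with a difference of -0.14 ± 0.075 (SE) that did not pass the test (adjusted p = 0.154). Scaling moved it, to -0.016 with quantile normalization (limma adjusted p = 0.867), -0.24 with median centring (0.0251) and -0.43 with cyclic loess (0.000742). From OC.2- to OC.2+ cells Tf fell 2.23-fold (1.99 to 2.49, adjusted p = 4.96e-08), a log2 difference of -1.15 that was -0.59 after cyclic loess. Against adult hepatocytes the fall was 2.45-fold (2.19 to 2.74, adjusted p = 6.4e-09).

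Haptoglobin (Hp), which binds free haemoglobin, fell at each step. Its values were 11.93, 11.90 and 11.93 in adult, 10.16, 10.28 and 10.09 in OC.2- and 7.87, 7.94 and 7.90 in OC.2+ cells. It was 3.35-fold lower in OC.2- than in adult cells (2.99 to 3.75, adjusted p = 9.59e-10), which after Orm1 was the largest fall of the 10 there. OC.2+ cells were a further 4.83-fold below OC.2- (4.31 to 5.41, adjusted p = 1.86e-10), and 16.2-fold below adult (14.5 to 18.1, adjusted p = 2.23e-13). The SD between arrays was 0.015 in adult, 0.098 in OC.2- and 0.032 in OC.2+ cells.

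Haemopexin (Hpx), the haem carrier, had a smaller fall than Hp at the fetal step and a larger one between the fetal groups, a contrast between genes that was not tested. It read 13.86, 13.75 and 13.63 in adult, 12.93, 12.91 and 12.81 in OC.2- and 10.31, 9.90 and 10.15 in OC.2+ cells, with no overlap. The falls were 1.82-fold (1.55 to 2.13, adjusted p = 1.83e-05) from adult to OC.2- and 6.79-fold (5.79 to 7.95, adjusted p = 4.54e-10) from there to OC.2+ cells.

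Ambp encodes a precursor cut into alpha-1-microglobulin, a lipocalin that takes up haem and radicals, and the protease inhibitor bikunin. It read 13.21, 13.20 and 13.04 in adult, 12.81, 12.85 and 12.75 in OC.2- and 10.20, 9.95 and 10.04 in OC.2+ cells. OC.2- cells were only 1.27-fold below adult (1.12 to 1.45, adjusted p = 0.00538), whereas OC.2+ cells were 6.67-fold below OC.2- (5.85 to 7.60, adjusted p = 1.34e-10).

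The fetuins Ahsg and Fetub, cystatin-type glycoproteins encoded side by side in the rat genome, parted in both steps. Ahsg, which keeps calcium phosphate in solution and is abundant in fetal plasma, read 13.57, 13.49 and 13.48 in adult, 13.62, 13.54 and 13.46 in OC.2- and 12.64, 12.52 and 12.49 in OC.2+ cells. The adult and OC.2- arrays overlapped, with a difference of 0.028 (95% interval -0.14 to 0.20, adjusted p = 0.8). Its sign depended on the scaling. Quantile normalization gave 0.18 (adjusted p = 0.0551), median centring -0.075 (0.511) and cyclic loess -0.25 (0.027). OC.2+ cells were 1.99-fold below OC.2- (1.77 to 2.24, adjusted p = 3.3e-07), the smallest of the 9 falls, and the log2 difference of -0.99 was -0.43 after cyclic loess.

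Fetub, which inhibits the protease ovastacin, read 13.97, 13.89 and 13.72 in adult, 13.24, 13.31 and 13.13 in OC.2- and 11.35, 10.84 and 11.09 in OC.2+ cells. These groups did not overlap. The fall from adult to OC.2- was 1.55-fold (1.30 to 1.86, adjusted p = 0.000705), and that from OC.2- to OC.2+ 4.38-fold (3.66 to 5.24, adjusted p = 1.22e-08). The intervals of Ahsg and Fetub did not overlap in either comparison, though the difference between the 2 genes was not itself tested.

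Vitronectin (Vtn), which binds integrins, the urokinase receptor and the inhibitor PAI-1, was, with Hpx and Ambp, among the members that fell most between the fetal groups. Their intervals overlapped, and without OC.2+ replicate 1 the value of Hpx (-2.86) was slightly below that of Vtn (-2.85). It read 13.01, 12.97 and 13.01 in adult, 11.93, 12.01 and 11.82 in OC.2- and 9.16, 8.96 and 9.17 in OC.2+ cells. OC.2- cells were 2.11-fold below adult (1.86 to 2.39, adjusted p = 2.67e-07) and OC.2+ cells 7.08-fold below OC.2- (6.25 to 8.02, adjusted p = 8.67e-11), which made 14.9-fold below adult (13.2 to 16.9, adjusted p = 5.48e-13).

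**Figure D2:**
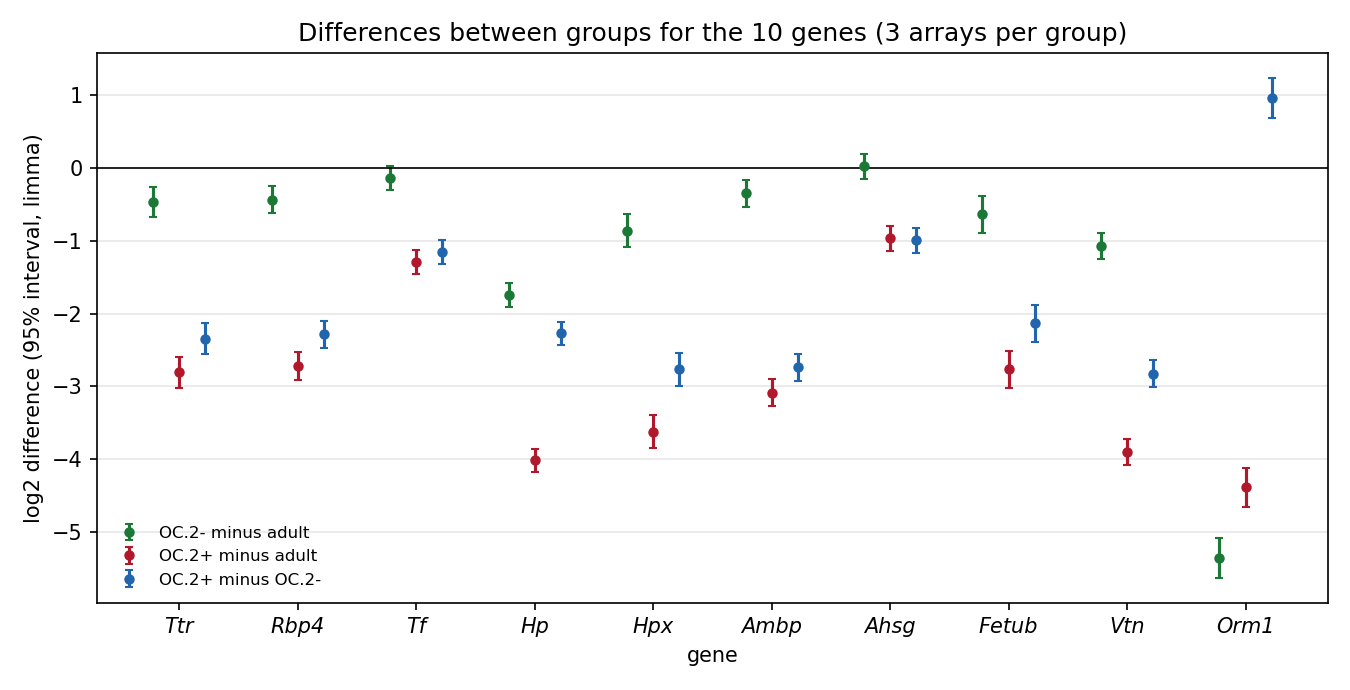
Log2 differences (vertical axis) with 95% intervals from limma for the 10 genes, with OC.2- minus adult in green, OC.2+ minus adult in red and OC.2+ minus OC.2- in blue. Orm1 alone has a blue point above 0 (0.96), and the blue points of Tf (-1.15) and Ahsg (-0.99) lie nearest to 0 among the others.

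Between the fetal groups the 9 falls formed an uneven set. The intervals of Tf (-1.32 to -0.99) and Ahsg (-1.16 to -0.82) overlapped each other and lay nearer to 0 than those of the other 7 genes, of which Fetub came closest (-2.39 to -1.87). Albumin (Alb), the main protein of plasma, stood at -0.32 ± 0.079, but at 0.33 after cyclic loess (limma adjusted p = 0.00862), so its direction rests on the scaling. All 3 are among the brightest on the array, where differences can be understated: 43 genes had a higher mean than Tf in OC.2+ cells and 33 than Ahsg. In OC.2- cells 5 genes had a higher mean than Tf and 6 than Ahsg. Ttr (11 genes above it) and Fetub (12) were also bright there, and fell 5.08- and 4.38-fold. The part of brightness in the small differences of Tf, Ahsg and Alb was not tested.

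Orm1, orosomucoid or alpha-1-acid glycoprotein, binds basic drugs and is a classical acute-phase protein of the rat. It was the member with the largest step between adult and OC.2- cells and the 1 member that rose from OC.2- to OC.2+ cells. Its log2 intensity was 11.23, 10.78 and 11.15 in adult, 5.89, 5.62 and 5.59 in OC.2- and 6.57, 6.60 and 6.83 in OC.2+ cells. The OC.2- arrays were the lowest, apart from both other groups. OC.2- cells were 40.9-fold below adult (33.8 to 49.4, adjusted p = 3.8e-12), and 0.17% of all genes had a lower difference in that comparison. OC.2+ cells were 20.9-fold below adult (17.3 to 25.3, adjusted p = 6.39e-12) and 1.95-fold above OC.2- (1.61 to 2.36, adjusted p = 3.57e-05).

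In OC.2- cells Orm1 was dimmer than most of the array (16.5% of genes had a lower mean), and in OC.2+ cells it lay near the middle (49.6%). There is no detection call in the deposited values, so these levels do not show whether fetal cells had any Orm1 RNA, and folds against them can be understated. The granulocyte markers that were higher on the same OC.2+ arrays included Mpo, the myeloperoxidase of neutrophil granules, at 12.21 to 12.38 against 6.67 to 6.90 in OC.2- cells. Their part in the Orm1 difference was not tested. The difference kept its direction and call in each of 9 fits that left out 1 array, at 0.88 to 1.06 on the log2 scale.

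The other carrier proteins of plasma, 15 measured of 16 listed, moved mostly as the members did. In OC.2- against adult cells 11 fell and 2 rose, with a median of -1.17, where 20.9% of all genes fell and 23.7% rose. The falls were led by Pon1, a lipoprotein-bound lactonase (-4.58 ± 0.11), and Afm, the vitamin E carrier afamin (-3.57), and the rises were alpha-fetoprotein (Afp, 6.52) and Serpina6, the corticosteroid-binding globulin (0.54). Alb differed by 0.021 ± 0.079 (adjusted p = 0.855), which median centring turned to -0.082 (0.476) and cyclic loess to -0.36 (0.00491). In OC.2+ against OC.2- cells 14 fell and 0 rose, with a median of -2.53, where 18.2% of all genes fell and 20.3% rose. Hrg, histidine-rich glycoprotein, had a difference of -3.40 and Apom, the carrier of sphingosine phosphate, of -2.96, while Serpina7, the thyroxine-binding globulin, stood at 0.052 (adjusted p = 0.886). Against adult hepatocytes 14 of the 15 fell and Afp rose in OC.2+ cells, where 23.4% of all genes fell.

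Other acute-phase proteins, 17 measured of 19 listed, split at the fetal step. Of the 17, 9 fell and 4 rose in OC.2- against adult cells (median -0.48), and 7 rose after quantile normalization. Over all genes 20.9% fell and 23.7% rose, the latter a share near that of the list as deposited. Serpina3n, a protease inhibitor, was 30.2-fold lower, and serum amyloid P (Apcs) 10.1-fold lower. The rises were led by the metal-binding Mt2A (2.27) and the kininogen Kng1 (1.06), whose close copy Kng2 can share its probe signal. Fibrinogen chains did not pass the test, with Fga at 0.026, Fgb at 0.14 and Fgg at 0.075 (adjusted p = 0.843, 0.221 and 0.456). After quantile normalization they passed, at 0.21, 0.40 and 0.23, while cyclic loess gave -0.11, 0.050 and -0.10. The list also holds the serine dehydratase Sds, which is an enzyme and not a plasma protein.

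From OC.2- to OC.2+ cells 14 of these 17 fell, led by the inter-alpha-inhibitor proteins Itih4 (-3.09) and Itih3 (-2.85), and 2 rose. Over all genes 18.2% fell and 20.3% rose. The fibrinogen chains fell here, Fga by 2.56, Fgb by 1.57 and Fgg by 2.29. The rises were the lipopolysaccharide-binding protein Lbp, 4.24-fold (3.62 to 4.97, adjusted p = 4.93e-09), and the neutrophil lipocalin Lcn2, 2.32-fold (2.02 to 2.67, adjusted p = 2.3e-07). Lbp had the order of Orm1, at 11.07 to 11.35 in adult, 8.50 to 8.86 in OC.2- and 10.68 to 10.85 in OC.2+ cells, and was the only 1 of the 17 that did. Its OC.2+ level came within 1.34-fold of adult (1.15 to 1.57, adjusted p = 0.00385). Lcn2 was lowest in adult hepatocytes (5.99 to 6.29) and highest in OC.2+ cells (7.65 to 7.84). It is also counted among the 13 granulocyte markers, 12 of which rose from OC.2- to OC.2+ cells.

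**Figure D3:**
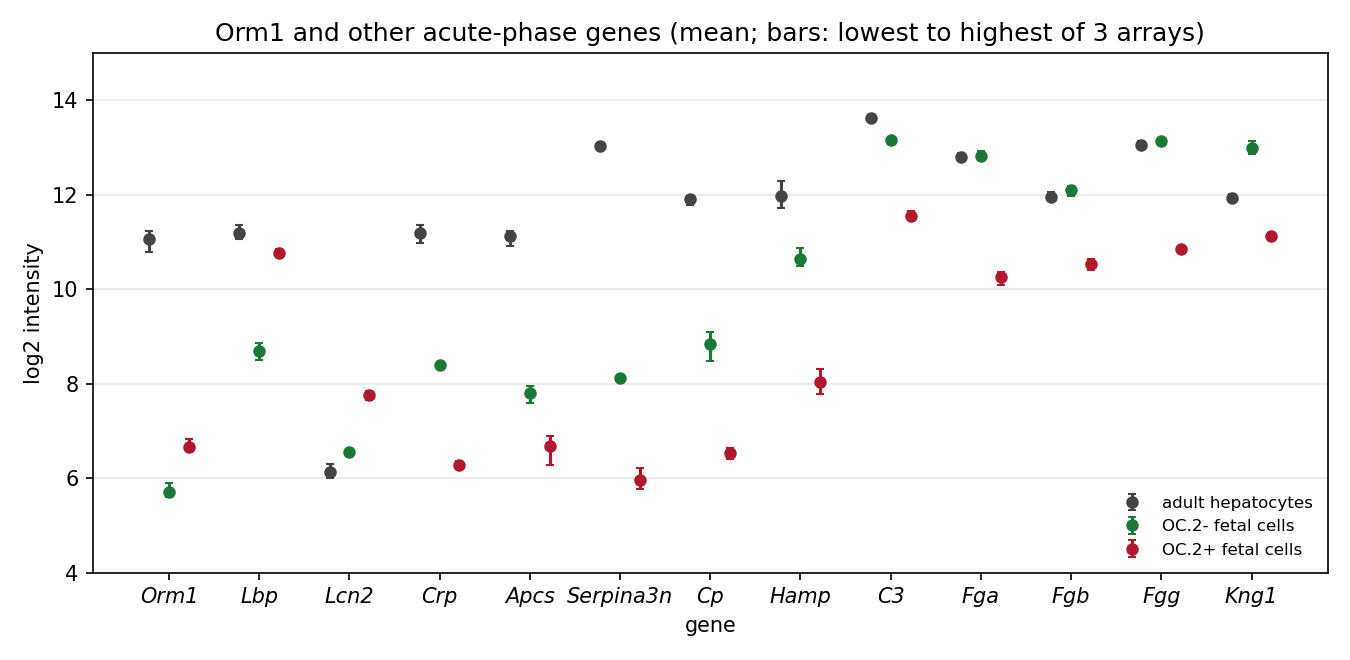
Mean log2 intensity (vertical axis) of Orm1 and 12 other plasma or acute-phase genes in adult hepatocytes (grey), OC.2- (green) and OC.2+ (red) fetal cells, with bars from the lowest to the highest of 3 arrays. The red point lies above the green one for Orm1, Lbp and Lcn2 and below it for the other 10; several of the genes were picked after their values were seen.

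Genes of acute-phase signalling, all 18 measured, were divided in OC.2- against adult cells, where 6 rose and 5 fell. Over all genes 23.7% rose and 20.9% fell, and the list's median of 0.066 was that of all genes. The feedback inhibitor Socs3 (2.09) and the leukaemia inhibitory factor receptor Lifr (1.79) rose most, and the glucocorticoid receptor Nr3c1 (-1.26) and the transcription factor Cebpb (-1.24) fell most. The interleukin-6 receptor Il6r (-0.21, adjusted p = 0.348) and Stat3 (-0.11, adjusted p = 0.377) did not pass, though Stat3 did at 0.31 after quantile normalization (0.00883). From OC.2- to OC.2+ cells 12 fell and 2 rose (median -0.66), where 18.2% of all genes fell and 20.3% rose. The shared receptor chain Il6st fell by 2.57, Lifr by 2.10, Il6r by 0.94 and Stat3 by 0.69, while the kinase Jak2 (1.24) and the cytokine Il1b (0.82) rose.

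Receptors and partners that take up the carriers or their cargo, 15 measured of 17 listed, moved both ways. In OC.2- against adult cells 6 rose and 6 fell (median -0.11, against 0.066 over all genes), where 23.7% of all genes rose and 20.9% fell. Haem oxygenase Hmox1 (1.71) and the transferrin receptor Tfrc (1.45) rose, and the asialoglycoprotein receptor chain Asgr1 (-2.54) and Lrp1, the receptor of haem-loaded haemopexin (-1.53), fell. From OC.2- to OC.2+ cells 3 of the 15 rose and 7 fell. Over all genes 20.3% rose, a share near that of the list, and 18.2% fell. Tfrc rose by 1.70, on arrays where its ligand Tf fell by 1.15, and the urokinase receptor Plaur, which binds vitronectin, rose by 1.55. Lrp1 fell by 1.35 and Asgr2 fell by 1.91. Tfrc is also counted among the red-cell precursor markers, 9 of 10 of which rose in the same comparison. Cd163, the macrophage receptor of haptoglobin bound to haemoglobin, was 0.30 lower, which missed the threshold (adjusted p = 0.078) and passed it after cyclic loess (0.028).

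Among genes that handle retinol and thyroid hormone, 14 measured of 17 listed, 3 rose and 5 fell in OC.2- against adult cells, where 23.7% of all genes rose and 20.9% fell. The list's median was 0.019, against 0.066 over all genes. The cellular retinol-binding protein Rbp2 had a difference of 5.22 and Lrat, which stores retinol as ester, of 0.54. Thrsp, a thyroid hormone-induced gene of lipogenesis, was at -5.82 and the retinol dehydrogenase Rdh16 at -5.25. In OC.2+ against OC.2- cells 1 rose and 7 fell, where 20.3% of all genes rose and 18.2% fell. Rbp2 stood at -3.22, and the thyroid hormone receptors Thrb at -1.69 and Thra at 0.38. Lrat is a gene of stellate cells, 9 of whose 11 listed markers rose from adult to OC.2- cells and 9 fell from OC.2- to OC.2+ cells.

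Liver transcription factors, 13 measured of 16 listed, fell in 10 cases and rose in 1 from adult to OC.2- cells (median -1.01). Of the 13, 11 fell and 0 rose from OC.2- to OC.2+ cells (median -1.52). Over all genes 20.9% fell and 23.7% rose in the former comparison, and 18.2% fell and 20.3% rose in the latter. Hnf4a, which controls many genes of secreted proteins, fell by 1.14 and then by 2.60. The bile acid receptor Nr1h4 (-1.88) and Nr1i3 (-1.80) had the lowest values in the former comparison, where the fatty acid sensor Ppara rose (0.87), and Ppara (-2.62) and Hnf4a the lowest in the latter.

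The machinery of secretion had more rises than falls at the fetal step, by a margin that depended on the scaling. Of 25 genes measured of 27 listed, 10 rose and 3 fell in OC.2- against adult cells (median 0.18), with 7 and 6 after median centring and 20 and 2 after quantile normalization. All genes had more rises than falls too, at 23.7% and 20.9% (median 0.066). Of their calls 53.1% were higher as deposited and 38.1% after median centring. Among the rises were Ssr2, a subunit of the translocon-associated complex (1.04), and Ddost, of the oligosaccharyltransferase (0.79). The falls were led by Mcfd2 (-1.48), which sorts cargo for export, and Sar1b (-1.07), a GTPase of transport vesicles. From OC.2- to OC.2+ cells 23 fell and 1 rose (median -0.94), where 18.2% of all genes fell and 20.3% rose. Lman1, the cargo receptor that works with Mcfd2, fell by 2.23 and Sec24d, a vesicle coat protein, by 1.61, and Sec61g rose by 0.31.

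**Figure D4:**
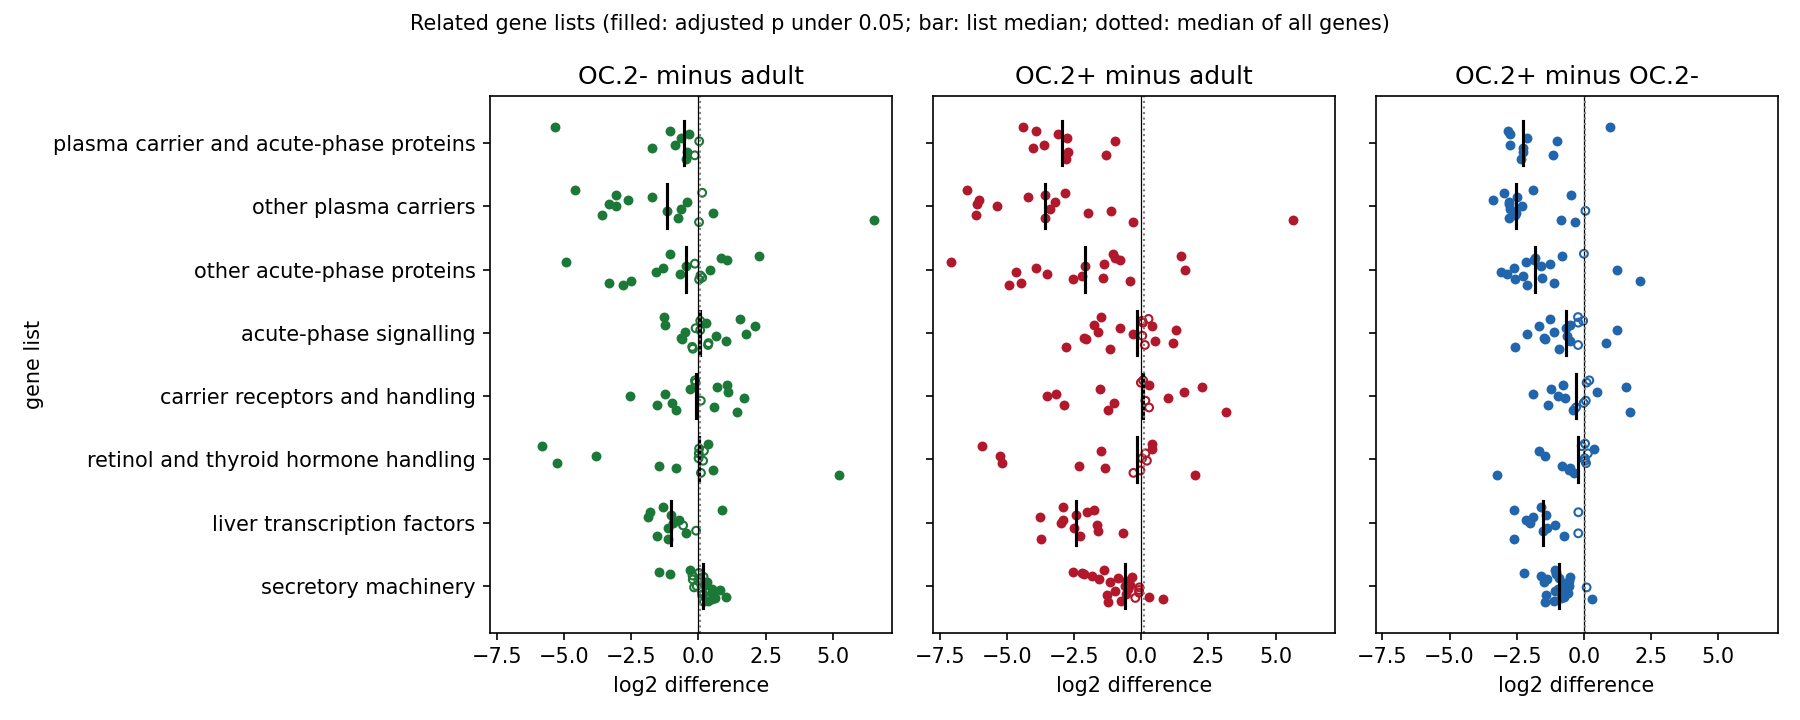
Log2 difference (horizontal axis) of each measured gene in 8 lists (rows) for the 3 comparisons (panels), with filled points for calls, a black bar at each list's median and a dotted line at the median of all genes. The 10 plasma genes (top row) have medians of -0.55, -2.95 and -2.28 from left to right, and the secretory machinery (bottom row) of 0.18, -0.62 and -0.94.

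The genes most like the mean of the 10 members over the 9 arrays, each member first centred on its own mean, were Ccl9, Pon3, Cpn2, Rnase4 and C8g, with Pearson r from 0.999 (C8g) upward. Ccl9 encodes a chemokine, Pon3 a lactonase related to Pon1, Cpn2 a subunit of plasma carboxypeptidase N and C8g a chain of complement component 8. The points share 3 groups of arrays, so these values mostly describe the order and spacing of the groups. Ccl9 had group means of 11.99, 10.29 and 7.28 in adult, OC.2- and OC.2+ cells. Orm1 was the least like every other member, with r between 0.32 (Ahsg) and 0.72 (Hp), against at least 0.98 for the closest fellow of each of the other 9. The genes most like Orm1, looked up after its values were seen, were Prodh (r = 0.995), Rpp21, Oat, Kdsr and Slc25a16, of which Prodh breaks down proline and Oat ornithine. Prodh read 9.12, 6.32 and 6.69 in the same order of groups.

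Within groups the members also moved together by small amounts. Adult replicate 1 had the highest value of all 10 members among the adult arrays, with deviations from the adult mean of 0.011 to 0.18. OC.2- replicate 3 had the lowest value of all 10 among the OC.2- arrays, with deviations of -0.11 to -0.046. The median deviation over all genes was -0.002 and -0.007, but the upper end of the distribution went the same way as the members. The 99th percentile of log2 intensity was 11.88 on adult replicate 1 against 11.85 and 11.82 on the other adult arrays, and 11.49 on OC.2- replicate 3 against 11.56 and 11.60. Among OC.2+ arrays replicate 1 was highest for 6 members and replicate 2 lowest for 6. The median SD of the members was 0.091 in adult, 0.074 in OC.2- and 0.13 in OC.2+ cells, against 0.10, 0.11 and 0.088 for all genes. The most variable member was Orm1 in adult (SD 0.24) and OC.2- cells (0.17) and Fetub in OC.2+ cells (0.26).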

How the data were processed

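Expression was measured on 1 array for each of 9 preparations, 3 per group. The authors deposited linear-scale intensities. The submitters' processing notes name RMA and Partek 6.6, without role or order. RMA as usually run evens out array distributions and shrinks differences of dim genes. For the upstream build and annotation, nothing is given in the sources used here. Per the labels, 150 ng of total RNA entered each amplification.

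Of 28826 rows, 15209 had 1 gene symbol in the platform annotation, 306 several and 13311 none, and only the former were used. Of these, 15178 were found in a current rat gene table, which changed 0 symbols. Log2 was taken, and the row with the highest mean stood for each of 14497 genes, without a filter. The script fitted group means in limma 3.58.1 (R 4.3.3) over all 9 arrays with 6 residual degrees of freedom, and tests were 2-sided. The 3 comparisons, each of 3 against 3 arrays, used the groups given by the sample titles. The fit was tested on simulated data. The number of arrays limits the precision.

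The members and lists were chosen with earlier results of these data known. Some genes stand in several lists, so the lists are not separate. Alb, Hnf4a and Serpina1 are also hepatocyte markers, Lcn2 a granulocyte, Tfrc a red-cell precursor and Cd163 a macrophage marker. Named genes were all 10 members, up to 2 called genes each way from every list with arrays that did not overlap, Alb, Afp, Hnf4a, Il6r and Stat3, and the 5 genes most like the members' mean. Others were picked with their values known. Fibrinogen, Cd163, Kng2, Lbp's levels, Mpo, the bile duct genes and the genes like Orm1 are of that kind. Alternatives covered the scaling, a dim-gene filter, averaged probe sets, variance models, array weights, the groups in the fit, a replicate block, a stricter threshold (0.01) and leaving out each array. Lists and named genes were refitted under the scalings only.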

Additional observations from a re-analysis of the deposited data

How the results depend on the processing

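Of the 30 member differences (10 genes in 3 comparisons), 28 kept direction and call under all 19 alternatives, of which 9 left out 1 array each. The exceptions were Tf and Ahsg in OC.2- against adult cells. Tf passed the test after median centring (-0.24) and cyclic loess (-0.43). Ahsg, at 0.028 and not called, turned to -0.075 after median centring and -0.25 after cyclic loess, and the cause was not tested. Leaving out 1 array moved it between -0.012 (OC.2- replicate 1) and 0.069 (OC.2- replicate 3). The members called numbered 8 in OC.2- against adult cells in all 9 fits without 1 array, and 10 in both other comparisons. With median centring 9 and with cyclic loess 10 were called in OC.2- against adult cells.

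Counts over all genes stayed within 1.5 times of the reported ones under every alternative. Without 1 array they ran from 5729 to 6217 (6458 reported) for OC.2- against adult, from 7206 to 8263 (8034) for OC.2+ against adult and from 5041 to 5595 (5576) for OC.2+ against OC.2- cells. Scaling moved the balance of calls. For OC.2- against adult cells 53.1% of calls were higher as deposited and 38.1% after median centring. For OC.2+ against adult cells cyclic loess moved the median difference of all genes from 0.11 to -0.0036, and that of the members from -2.95 to -2.67.

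The labels name no pairing of arrays by replicate number, and the deviations showed no clear sign of one. Correlations of deviations between same-numbered arrays of different groups were -0.226 to 0.106, against -0.16 to 0.285 for other numbers. Of 9 searches, 3 for each pair of groups, 2 found the highest correlation at the same number, both between OC.2+ and adult arrays. Deviations within a group of 3 arrays depend on each other, so these low values cannot exclude that groups shared preparations. With the replicate block the counts were 6199, 7777 and 5416 in the same order, and every member kept its call. Differences of bright genes can be understated, and levels of dim ones, such as Orm1 in fetal cells, carry no detection call.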
